A study of Rattus norvegicus with 4 samples.

Results

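Gas7 and 9 genes of microtubules and process outgrowth (Map2, Map1b, Mapt, Stmn1, Stmn2, Tubb3, Tubb2b, Gap43 and Dpysl3) were followed in rat Schwannoma cells in which the transcription factor Sox10 had been reduced by RNA interference. Their probe sets were taken by name: every probe set whose platform annotation gives exactly 1 of these 10 symbols and no other, which gave 19 of the 31042 probe sets that are not array controls. Of the 19, 11 probe sets of 7 genes were bright enough to be tested, and the other 8 are given by their signals alone.

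The cells were RT4D6, rat Schwannoma cells, which grew from a tumour of the glia that ensheath peripheral nerves. They received either the wild type (specific) Sox10 siRNA or the mutant (control) Sox10 siRNA, and the labels give 48 h for every sample. The groups hold 2 arrays each, wild type siRNA replicates 1 and 2 and mutant siRNA replicates 1 and 2, which the submitters describe as paired sets of cells, and each RNA was read on 1 Affymetrix Rat 230 2.0 array. All samples are of this 1 line, and the number of arrays limits the precision. The limma p-values rest on the spread between 2 cell samples a group, together with variance borrowed from other probe sets of like brightness. The question for these genes was which of them moved when Sox10 was lowered, and in which direction.

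Microtubules are hollow polymers of alpha- and beta-tubulin that give long cell processes their core. Microtubule-associated proteins such as Map2, Map1b and tau (Mapt) bind along the polymer, stathmins bind free tubulin dimers and favour disassembly, and collapsin response mediator proteins (CRMPs, encoded by the Dpysl genes) bind tubulin and act in the growth cone, the motile tip of a growing axon. Gas7 is an F-BAR protein, of a family that binds curved membranes and actin; it is named for its rise in growth-arrested fibroblasts and is known for a part in neurite outgrowth. Most of these genes are best known from neurons, but glia also extend processes, and Map1b and Gap43 have been described in Schwann cells.

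Sox10 acts through a short DNA core shared by Sox proteins, ACAAT, read as ATTGT on the other strand, which the study searched for near its candidate genes. Its search reached farther upstream and to the end of the first intron, and asked for a match to binding matrices and for conservation between species. The matches below use the core alone in a shorter window, so they cannot be set beside its sites. To show what lies directly before the start of the genes that changed, the 250 bases before the annotated start were taken from RefSeq promoters on GRCr8, and each match to the core on either strand is in capitals. The promoter table held 7 windows of 6 of the 10 genes; Gas7, Mapt, Stmn2 and Gap43 are named only. Stmn1, Map2 and Dpysl3 are shown because they are the genes in that table that passed the test below.
Stmn1, chr5:151964929-151965178, plus strand: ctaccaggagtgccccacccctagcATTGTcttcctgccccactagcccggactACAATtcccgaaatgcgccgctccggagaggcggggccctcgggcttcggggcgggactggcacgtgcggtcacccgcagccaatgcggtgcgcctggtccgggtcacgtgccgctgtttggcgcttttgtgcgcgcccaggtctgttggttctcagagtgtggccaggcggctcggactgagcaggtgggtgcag
Map2, chr9:75346440-75346689, plus strand: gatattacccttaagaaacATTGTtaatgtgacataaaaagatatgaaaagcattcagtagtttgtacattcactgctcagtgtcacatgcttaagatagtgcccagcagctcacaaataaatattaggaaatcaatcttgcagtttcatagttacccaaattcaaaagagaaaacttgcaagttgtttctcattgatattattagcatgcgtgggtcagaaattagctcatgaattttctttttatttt
Dpysl3, distal start, chr18:35731153-35731402, minus strand: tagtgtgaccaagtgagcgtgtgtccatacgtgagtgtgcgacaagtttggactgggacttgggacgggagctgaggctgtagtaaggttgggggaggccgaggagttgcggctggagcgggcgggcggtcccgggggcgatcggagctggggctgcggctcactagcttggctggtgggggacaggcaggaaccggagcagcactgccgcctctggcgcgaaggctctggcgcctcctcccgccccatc
Dpysl3, second start, chr18:35688512-35688761, minus strand: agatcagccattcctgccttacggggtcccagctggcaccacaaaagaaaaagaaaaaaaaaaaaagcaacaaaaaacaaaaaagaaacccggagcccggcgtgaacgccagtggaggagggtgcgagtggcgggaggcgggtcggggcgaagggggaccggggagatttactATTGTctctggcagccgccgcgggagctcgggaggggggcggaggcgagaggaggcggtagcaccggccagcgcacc
Stmn1 carries 2 cores, 225 and 196 bases before its start, and Map2 carries 1, 231 bases before its start. Dpysl3 carries 1 core, 77 bases before its second start, and none before the distal start. Among the genes that did not pass the test or were not tested, the window of Tubb3 holds 3 cores, that of Map1b 1 and that of Tubb2b none. Of all 33469 windows of this length in the table, 30.0% hold at least 1 core, 7.45% at least 2 and 1.53% at least 3. These matches describe letters in the sequence and do not show binding.

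For Gas7, the study designed primers around a core in the gene, used after chromatin immunoprecipitation (ChIP), and primers for its mRNA. From ChIP the study proposes binding at PLP, Sox10, SOD3 and Ptn, with Ngfr and Cmkor1 as possible further targets, and does not name Gas7. Its real time PCR gave lower mRNA for all of its candidate genes, Gas7 among them, with the specific siRNA. The primers are shown because they mark the gene's assayed parts, and the values of those assays were not analysed here.
Gas7 ChIP, sense: taaggcaggctcagggagtc
Gas7 ChIP, antisense: catgcacgcctttccagatac
Gas7 mRNA, sense: tcaagaaggcacggaggaag
Gas7 mRNA, antisense: tcatgccgcagctgtgtg

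The values below are MAS5 signals, the brightness of a probe set on a linear scale after the authors' scaling, which set the trimmed mean of every array to 500.2. Array medians lay between 101.3 and 110.4 and the 25th percentiles between 26.2 and 31.0, and signals near the latter cannot be told from background. Sox10 itself had signals of 163.4 and 335.4 with the wild type siRNA, against 2872.6 and 2890.1 with the mutant siRNA, a log2 fold change of -3.54 (adjusted p = 0.00130, limma), so that both pairs carry the difference their labels name. Of 10 Schwann cell markers, 5 were tested and all 5 were lower: Sox10, S100b, Ngfr, Erbb3 and Gfap. The rest were too dim or had no single-symbol probe set. Sox10 is the siRNA target, and the study chose Ngfr and Erbb3 from these same arrays by their fall, so these give no separate evidence. The study also cites the authors' earlier report of an apparent fall of Gfap and Ngfr with a Sox10 siRNA in RT4D6 cells. Whether that report used these arrays is not said in the study. Erbb3 was above the array median with the mutant siRNA alone. Signals summed over the measured markers were 1037.2 and 1529.1 with the wild type siRNA, against 15616.4 and 11410.7 with the mutant siRNA. In whole-culture RNA, fewer cells of a type and less RNA per cell cannot be told apart. A log2 fold change is wild type minus mutant siRNA after each array was centred on its median. A probe set was tested if its signal was not under the median of the array on 2 or more arrays and was called at an adjusted p under 0.05 from limma, adjusted over all 16125 tested probe sets.

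Gas7, Stmn1 and 1 of the 2 Map2 probe sets were lower with the wild type siRNA, both Dpysl3 probe sets were higher, and the other 6 tested probe sets, of Map2, Map1b, Mapt and Tubb3, did not pass. Over all tested probe sets, 12.1% were called lower and 14.6% higher, so 3 of 11 lower and 2 of 11 higher stand beside that background. The same 3 and 2 probe sets were those whose groups did not overlap, while 28.3% of all tested probe sets lay lower without overlap and 40.4% higher. The median log2 fold change was 0.07 over the 11 probe sets and 0.13 over all tested ones. By gene, taking the brightest tested probe set of each, 3 of 7 were lower and 1 of 7 was higher, against 10.6% and 17.3% of the 9165 genes tested. The median by gene was -0.37, beside 0.19 over all genes tested, on the other side of 0 from the median by probe set, and it became 0.28 without mutant siRNA replicate 1. None of these 11 probe sets had passed the brightness filter through 1 group alone.

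**Figure D1:**
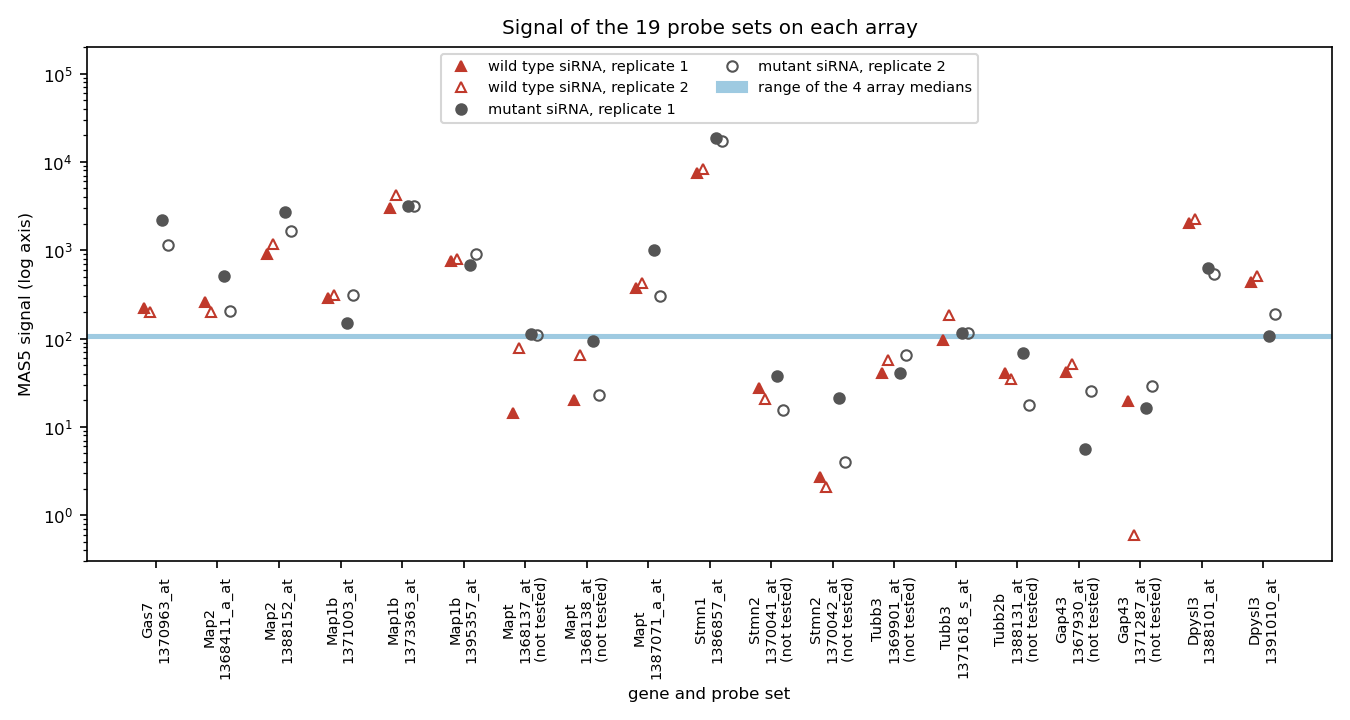
MAS5 signal (log axis) of each of the 19 probe sets on the 4 arrays, with triangles for the 2 wild type siRNA arrays, circles for the 2 mutant siRNA arrays and a band for the range of the array medians. The triangles lie below the circles for Gas7 and Stmn1 and above them for both Dpysl3 probe sets, and the probe sets marked as not tested mostly lie under the band.

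Gas7 had the lowest log2 fold change among the members. Its 1 probe set (1370963_at) had signals of 222.1 and 199.8 with the wild type siRNA, against 2200.9 and 1159.9 with the mutant siRNA. The wild type siRNA arrays lay close together and above the array median, the mutant siRNA arrays were both far higher, and replicate 1 was the higher of them. The mean was 211 ± 15.8 with the wild type siRNA and 1680.4 ± 736 with the mutant siRNA (SD, n = 2 each). The median-centred log2 fold change was -2.84 (standard error, SE, 0.32, adjusted p = 0.00173, limma), which is a 7.18-fold lower level. Within the pairs, the difference was -3.27 for replicate 1 and -2.41 for replicate 2 on the log2 scale. With each array left out in turn it passed each time, from -3.32 when mutant siRNA replicate 2 was dropped to -2.36 when mutant siRNA replicate 1 was dropped. The study selected Gas7 for binding assays from these same arrays, so its fall here gives no separate evidence of a direction.

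The genes whose pattern over the 4 arrays was most like that of Gas7, by Euclidean distance between log2 signals each taken about its own mean, were Spon1, Abca1 and Bace2. Spon1, which encodes the matrix protein F-spondin, was at a distance of 0.18, with signals of 155.6 and 133.5 with the wild type siRNA, against 1418.2 and 682.5 with the mutant siRNA. Abca1, a cholesterol transporter, was at 0.24, with 32.7 and 35.7 with the wild type siRNA against 326.0 and 196.2 with the mutant siRNA, the wild type siRNA values being close to background. Bace2, an aspartic protease, was at 0.32, with 274.8 and 286.3 with the wild type siRNA against 2891.1 and 1933.9 with the mutant siRNA. In all of these, as in Gas7, mutant siRNA replicate 1 was the highest array. The log2 fold changes of Spon1 and Bace2 were -2.69 and -3.00. Abca1 was above the array median with the mutant siRNA alone, so it gets no fold and its distance rests in part on dim values, and it did not pass the test without mutant siRNA replicate 1 (adjusted p = 0.133, limma). This likeness is over 4 arrays only and is a description.

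Among the microtubule-associated proteins, Map2, which binds microtubules in dendrites, gave unequal readings on its 2 probe sets. On 1388152_at the signals were 913.1 and 1176.3 with the wild type siRNA, against 2740.2 and 1644.6 with the mutant siRNA. The groups did not overlap, and the gap was wide in replicate 1 (log2 difference -1.55) and narrow in replicate 2 (-0.36). The log2 fold change was -0.96 (SE 0.28, adjusted p = 0.0373, limma), a 1.94-fold lower level. This call was lost when mutant siRNA replicate 1 was left out (-0.57, adjusted p = 0.221) and when wild type siRNA replicate 1 was (-0.75, adjusted p = 0.106).

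The other Map2 probe set, 1368411_a_at, a design that detects several transcripts of a gene, had signals of 260.3 and 198.2 with the wild type siRNA, against 505.3 and 202.5 with the mutant siRNA. Here the groups overlapped, and only mutant siRNA replicate 1 stood apart. The log2 fold change was -0.41 (SE 0.43, adjusted p = 0.50, limma), and it turned to 0.26 without mutant siRNA replicate 1.

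Map1b, a protein of growing axons, was read by 3 probe sets, of which none passed. The signals of 1373363_at were 3034.7 and 4205.3 with the wild type siRNA, against 3138.9 and 3149.3 with the mutant siRNA. Only wild type siRNA replicate 2 stood apart, and the log2 fold change was 0.26 (SE 0.21, adjusted p = 0.364, limma). For 1371003_at the signals were 287.6 and 314.2 with the wild type siRNA, against 149.6 and 314.0 with the mutant siRNA, with mutant siRNA replicate 1 the low one (0.55, SE 0.37, adjusted p = 0.293). For 1395357_at they were 748.3 and 799.1 with the wild type siRNA, against 676.5 and 900.3 with the mutant siRNA, where the mutant siRNA arrays enclosed the wild type siRNA arrays (0.07, SE 0.22, adjusted p = 0.850). The spread between 2 arrays of 1 group was thus as large as the difference between groups on each of the 3.

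Mapt, the tau protein of axons, was tested on 1387071_a_at. Its signals were 372.8 and 429.3 with the wild type siRNA, against 998.6 and 299.7 with the mutant siRNA, so that the mutant siRNA arrays lay on either side of the wild type siRNA arrays. The log2 fold change was -0.37 (SE 0.49, adjusted p = 0.597, limma). Which mutant siRNA array was kept decided the sign: it was 0.51 without replicate 1 (adjusted p = 0.324) and -1.26 without replicate 2 (adjusted p = 0.0381). Its other probe sets were too dim to test, 1368137_at with 14.2 and 77.7 with the wild type siRNA against 111.7 and 109.0 with the mutant siRNA, and 1368138_at with 20.0 and 65.1 with the wild type siRNA against 93.7 and 22.7 with the mutant siRNA.

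Mutant siRNA replicate 1 was the highest array for Gas7, both Map2 probe sets and the tested Mapt probe set. Of the 11 tested probe sets, 7 had a higher deposited signal on mutant siRNA replicate 1 than on replicate 2, as had 8138 of all 16125; after centring on the array medians these counts were 8 and 8794. The actin control probe sets, whose 3' over 5' ratio is a sign of RNA quality, gave ratios of 1.54 and 1.39 with the wild type siRNA, against 1.87 and 1.52 with the mutant siRNA, highest on mutant siRNA replicate 1. The Gapdh ratio lay between 1.06 and 1.11 on all 4 arrays. The part of RNA quality in these values was not tested.

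Stmn1 encodes stathmin, which sequesters tubulin dimers and is abundant in dividing cells. Its probe set (1386857_at) had signals of 7439.8 and 8236.3 with the wild type siRNA, against 18551.6 and 17295.8 with the mutant siRNA. Both groups were tight and far apart. The mean was 7838 ± 563 with the wild type siRNA, against 17924 ± 888 with the mutant siRNA (SD, n = 2 each). The median-centred log2 fold change was -1.12 (SE 0.15, adjusted p = 0.00276, limma), which is a 2.17-fold lower level. The pairs gave -1.28 and -0.95, and the call held with each array left out (adjusted p up to 0.0236).

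Genes of dividing cells moved with Stmn1. Of 20 tested, 15 were lower and 0 higher by limma, beside 10.6% and 17.3% of all tested genes. At an unadjusted p under 0.05 from limma the counts were 19 and 0. The median of these 20 genes was -1.34, beside 0.19 over all tested genes. Their summed signals were 23233.7 and 41305.8 with the wild type siRNA, against 77049.9 and 84365.8 with the mutant siRNA, which is a wider gap between the wild type siRNA arrays than Stmn1 had. The subunits of the replication helicase Mcm5, Mcm7 and Mcm6 had log2 fold changes of -2.21, -1.92 and -1.91, and Top2a, a DNA topoisomerase of dividing cells, had -1.80. The Mcm calls held with each array left out; Top2a did not pass without mutant siRNA replicate 1 (adjusted p = 0.0556) or replicate 2 (0.0688). Leaving out wild type siRNA replicate 1 gave 8 lower, mutant siRNA replicate 1 also 8, mutant siRNA replicate 2 gave 7 and wild type siRNA replicate 2 gave 19. The median was -0.76 without wild type siRNA replicate 1 and between -1.90 and -1.17 without any 1 of the other arrays. The count lower was 6 under eBayes without trend, which is limma with no relation of variance to brightness, and 4 at an unadjusted p under 0.05 in the methods' test, which takes each probe set's variance alone. The part of cell division in the fall of Stmn1 was not tested.

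Stmn2, the stathmin of neuronal growth cones, was at background on both probe sets. On 1370041_at the signals were 27.2 and 20.4 with the wild type siRNA, against 37.7 and 15.4 with the mutant siRNA, under the 25th percentile on 3 of 4 arrays. On 1370042_at they were 2.7 and 2.1 with the wild type siRNA against 21.0 and 4.0 with the mutant siRNA, under it on all 4. Among its relatives, Stmn4 had 97.6 and 103.6 with the wild type siRNA, against 120.6 and 129.9 with the mutant siRNA (log2 fold change -0.24, adjusted p = 0.721), and Stmn3 was not tested.

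The members that encode tubulins, Tubb3 and Tubb2b, are the beta-tubulins typical of neurons. Tubb3 was tested on 1371618_s_at, a design whose probes can match transcripts of more than 1 gene, so this reading may not be of Tubb3 alone. Its signals were 96.4 and 186.8 with the wild type siRNA, against 116.0 and 115.6 with the mutant siRNA, all near the array medians. The wild type siRNA arrays lay on either side of the mutant siRNA arrays, with a log2 fold change of 0.29 (SE 0.48, adjusted p = 0.679, limma) that became -0.21 without wild type siRNA replicate 2. The other Tubb3 probe set, 1369901_at, had 41.0 and 57.2 with the wild type siRNA against 41.1 and 65.0 with the mutant siRNA, and the Tubb2b probe set, 1388131_at, had 40.2 and 34.4 with the wild type siRNA against 68.9 and 17.9 with the mutant siRNA; neither was tested. The neuronal tubulins thus gave dim, overlapping signals in both groups.

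Of the other beta-tubulins, Tubb5, Tubb6, Tubb2a and Tubb4b had a probe set far above the array medians. Tubb4a, with signals from 154.0 to 278.2, lay nearer to them. Tubb1 and a second Tubb6 probe set lay under them on every array and were not tested. Tubb5, on 1387892_at, had 9241.5 and 13612.6 with the wild type siRNA, against 18360.7 and 19325.3 with the mutant siRNA, a log2 fold change of -0.67 (SE 0.20, adjusted p = 0.0385, limma). It did not pass without wild type siRNA replicate 1 (adjusted p = 0.230), mutant siRNA replicate 1 (0.119) or mutant siRNA replicate 2 (0.138). A second Tubb5 probe set was at -0.51 (adjusted p = 0.0884) and Tubb6 at -0.47 (adjusted p = 0.0928); with the replicate number as a block both passed, at adjusted p = 0.00878 and 0.0106. Tubb2a, with 11287.6 and 15446.5 with the wild type siRNA against 13086.9 and 13297.0 with the mutant siRNA, was at 0.08 (adjusted p = 0.769).

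Over 10 tested tubulin genes, 2 were lower and 0 higher (limma), beside 10.6% and 17.3% of all tested genes. At an unadjusted p under 0.05 from limma the counts were 4 and 0, and with the replicate block 4 were lower. Their median of -0.24 lay between -0.57 and -0.068 with 1 array left out. Beside Tubb5, the other of the 2 called lower was Tube1, epsilon-tubulin, a protein of centrioles. Tube1 had 159.3 and 143.9 with the wild type siRNA, against 390.8 and 343.3 with the mutant siRNA (-1.20, adjusted p = 0.0189, limma). It did not pass without mutant siRNA replicate 1 (adjusted p = 0.119) or replicate 2 (0.0734). Leaving out either mutant siRNA array left 0 lower by limma, leaving out wild type siRNA replicate 1 left 1, and leaving out wild type siRNA replicate 2 gave 4.

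Gap43, a membrane protein of growth cones, was not tested. The probe set 1367930_at had signals of 41.7 and 50.9 with the wild type siRNA, against 5.6 and 25.4 with the mutant siRNA. The wild type siRNA arrays were the higher ones, but the mutant siRNA arrays lay under the 25th percentile, where no fold can be given. On 1371287_at the signals were 19.8 and 0.6 with the wild type siRNA against 16.4 and 29.3 with the mutant siRNA, all under it. Basp1, a related growth cone protein, had 269.6 and 342.2 with the wild type siRNA, against 220.8 and 350.1 with the mutant siRNA (log2 fold change 0.21, adjusted p = 0.651, limma).

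Of the 8 probe sets not tested, 7 lay under the 25th percentile on at least 1 array and 2 on all 4, and their groups overlapped in 5. Stmn2, Tubb2b and Gap43 had no tested probe set at all. Markers of neurons were read beside these genes: of 15, only 5 were tested and 9 lay under the array median on every array, among them the neuronal nuclear protein Rbfox3 (6.3 and 25.9 with the wild type siRNA against 28.1 and 45.7 with the mutant siRNA) and the synaptic protein Snap25 (6.9 and 2.4 with the wild type siRNA against 5.9 and 7.5 with the mutant siRNA). Eno2, an enolase of neurons, was higher (1.24, adjusted p = 0.0120), but did not pass without mutant siRNA replicate 1 (0.0741) or under eBayes without trend (0.0532), and 0 neuron markers were lower by limma's adjusted or unadjusted p. Of the tested markers, 4 did not pass. Uchl1 was far above the array medians (0.15, adjusted p = 0.519, limma). Its signals were 4870.1 and 5650.2 with the wild type siRNA, against 5037.7 and 4930.2 with the mutant siRNA. Nefl had 305.4 and 326.9 with the wild type siRNA against 509.5 and 458.7 with the mutant siRNA (-0.53, adjusted p = 0.126, limma). Nefm and Syp lay nearer to the array medians. The summed neuron marker signals were 7032.9 and 8339.0 with the wild type siRNA, against 6833.9 and 7000.2 with the mutant siRNA. Uchl1 made up most of each sum.

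Dpysl3, which encodes CRMP4, a protein that binds actin and tubulin in growth cones, was the 1 member that rose. On 1388101_at the signals were 2039.6 and 2283.7 with the wild type siRNA, against 635.4 and 539.5 with the mutant siRNA. On 1391010_at they were 435.0 and 506.4 with the wild type siRNA, against 107.3 and 189.4 with the mutant siRNA. The wild type siRNA arrays were the higher ones on both, and the lowest value, on mutant siRNA replicate 1, was just under the array median. The log2 fold changes were 1.96 (SE 0.21, adjusted p = 0.00161, limma) and 1.80 (SE 0.34, adjusted p = 0.00807), that is, 3.89-fold and 3.48-fold higher. Within the pairs the first was 1.72 and 2.21 and the second 2.05 and 1.54. Both passed with each array left out, at adjusted p up to 0.0136 and 0.0401.

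No other tested gene of the CRMP family passed. Dpysl2 (CRMP2) had 6699.0 and 7870.9 with the wild type siRNA, against 7958.2 and 7417.9 with the mutant siRNA, a log2 fold change of -0.0025 (SE 0.16, adjusted p = 0.994, limma). Dpysl5 had 51.2 and 82.6 with the wild type siRNA against 200.4 and 115.8 with the mutant siRNA (adjusted p = 0.153, limma). It was above the array median with the mutant siRNA alone, so it gets no fold. Crmp1 had 236.8 and 176.5 with the wild type siRNA against 194.8 and 175.2 with the mutant siRNA (0.23, adjusted p = 0.634), while Dpysl4 was too dim to test. The difference between Dpysl3 and its relatives was not tested.

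Part of the smooth muscle markers moved in the same direction as Dpysl3. The authors' earlier report, cited in the study, had described an apparent change of these cells into smooth muscle cells, with higher alpha-smooth muscle actin (Acta2). Of the 10 markers read here, 5 were tested and 3 were higher, the contractile proteins Acta2 (2.37), Tagln (1.72) and Myl9 (4.59). Myh11 had 137.6 and 147.4 with the wild type siRNA, against 95.6 and 35.2 with the mutant siRNA, and did not pass (adjusted p = 0.137, limma). It was above the array median with the wild type siRNA alone, so it gets no fold. Smtn, a protein of contractile smooth muscle, lay against the direction of the others (-0.84) and did not pass (adjusted p = 0.0633). It was called lower by limma with the replicate block (adjusted p = 0.0127) and with the signals as deposited (0.0438). The other 5 lay under the array median on every array, among them calponin (Cnn1), desmin (Des) and myocardin (Myocd). The summed signals were 32622.1 and 44422.9 with the wild type siRNA, against 6911.7 and 12521.2 with the mutant siRNA. The count higher was 2 without mutant siRNA replicate 1 or under eBayes without trend, Acta2 then being lost (adjusted p = 0.0808 and 0.0780). Their part in the rise of Dpysl3 was not tested.

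**Figure D2:**
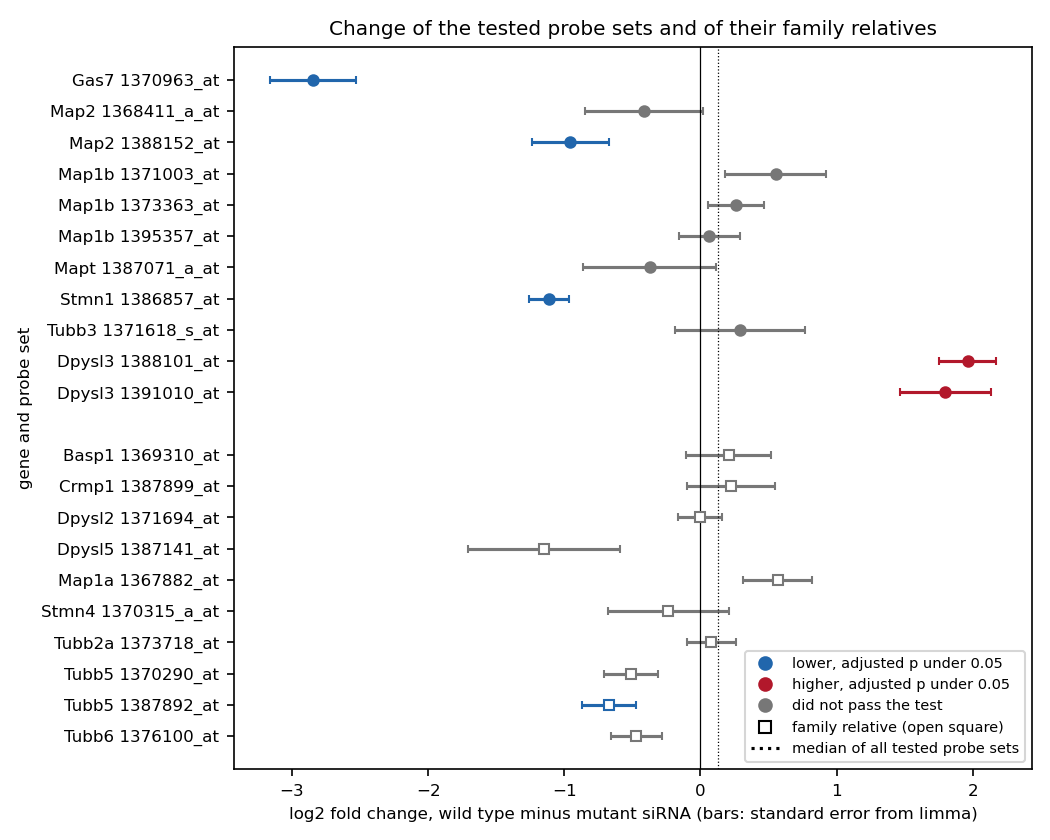
Log2 fold change, wild type minus mutant siRNA, of the 11 tested probe sets (filled circles, upper block) and of family relatives (open squares, lower block), with bars for the standard error from limma and a dotted line for the median of all tested probe sets, 0.13. Gas7 lies farthest to the left at -2.84 and both Dpysl3 probe sets farthest to the right, while the Dpysl3 relative Dpysl2 lies at -0.0025.

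**Figure D3:**
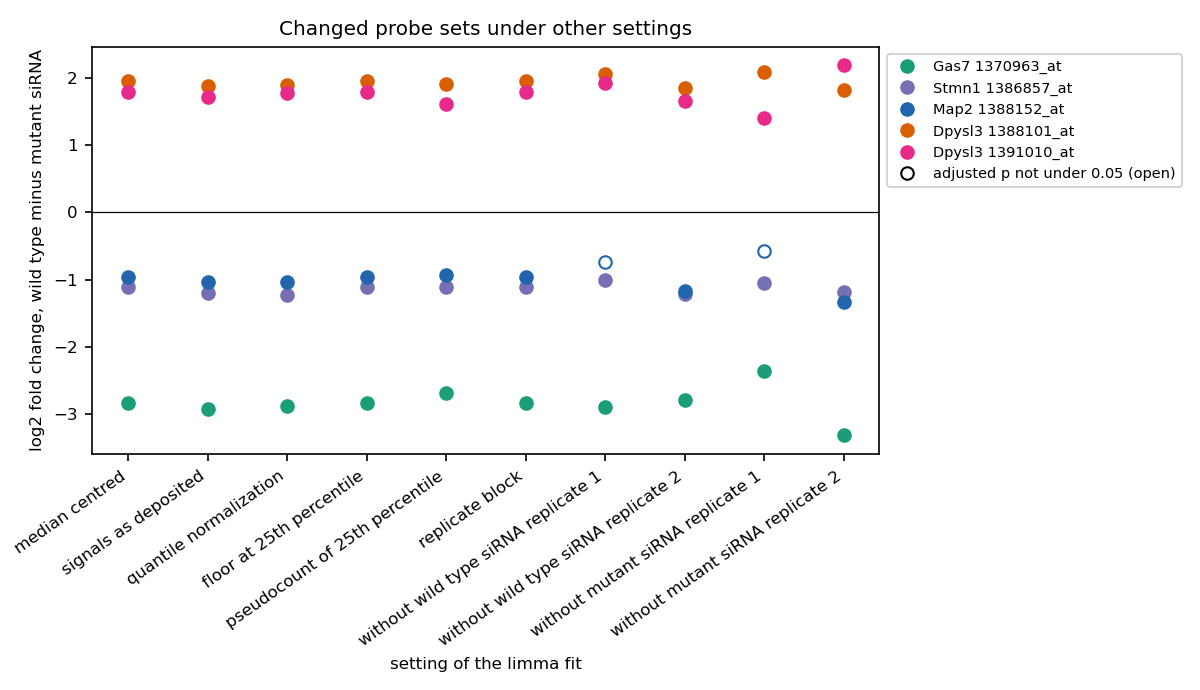
Log2 fold change of the 5 called probe sets under 10 settings of the limma fit (4 scalings or floors beside the median-centred fit, the replicate block and each array left out), with open symbols where the adjusted p was not under 0.05. In the settings shown all stay on their side of 0 and Map2 alone has open symbols, without replicate 1 of either group; it also did not pass under eBayes without trend (0.107), which is not drawn.

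Microtubule-associated proteins, Map2, Map1b and Mapt among them, were read from a list of 16 genes, of which 11 were tested. Of the 11, 2 were lower and 1 higher, beside 10.6% and 17.3% of all tested genes, and the median was 0.15. Without Map2, Map1b and Mapt, 1 of 8 was lower and 1 higher, with a median of 0.19. The median of the 11 became -0.15 without wild type siRNA replicate 2. It lay between 0.036 and 0.35 without any 1 of the other arrays. Dclk1, a doublecortin-like kinase that binds microtubules, had signals of 1276.0 and 2226.1 with the wild type siRNA, against 6425.8 and 4277.2 with the mutant siRNA, a log2 fold change of -1.56 (adjusted p = 0.00949, limma), and did not pass without mutant siRNA replicate 1 (adjusted p = 0.0612). Map6, which makes microtubules resistant to cold, had 937.4 and 791.9 with the wild type siRNA against 274.5 and 420.0 with the mutant siRNA, a log2 fold change of 1.42 (adjusted p = 0.00753) that passed with each array left out. Map2 was the second lower one. Map1a, the nearest relative of Map1b, had 435.8 and 464.4 with the wild type siRNA, against 275.5 and 373.0 with the mutant siRNA and did not pass (0.57, adjusted p = 0.128). Leaving out mutant siRNA replicate 1 left 0 lower by limma, as did eBayes without trend, and leaving out wild type siRNA replicate 1 left 1.

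Proteins that bind microtubule ends or sever microtubules gave 4 lower and 4 higher of 18 tested (limma), beside 10.6% and 17.3% of all tested genes. The median of the list was 0.35. The split moved with the variance model, with 0 lower and 2 higher under eBayes without trend and 1 lower and 6 higher at an unadjusted p under 0.05 in the methods' test. Slain2, which promotes growth at plus ends, had 1425.9 and 1162.1 with the wild type siRNA, against 427.2 and 514.8 with the mutant siRNA (1.54, adjusted p = 0.00320, limma). Spast, the severing protein spastin, had 2046.7 and 1742.0 with the wild type siRNA against 646.4 and 770.2 with the mutant siRNA (1.50, adjusted p = 0.00279). Both passed with each array left out. Katnal1, a katanin subunit, was at 1.78 (adjusted p = 0.0418) and did not pass without wild type siRNA replicate 1 (0.169) or mutant siRNA replicate 1 (0.160). Kif2c, a kinesin that depolymerises microtubules in mitosis, was at -1.44 (adjusted p = 0.0201) and did not pass without mutant siRNA replicate 2 (0.114). Leaving out replicate 1 of either group left 1 lower and 2 higher, and leaving out mutant siRNA replicate 2 left 1 lower and 5 higher.

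Genes of tubulin folding and modification held 6 higher and 0 lower of 16 tested (limma; 7 and 0 at an unadjusted p under 0.05), beside a background of 17.3% of genes higher, with a median of 0.35. Svbp, the partner of the enzymes that remove the last tyrosine of alpha-tubulin, had 1334.3 and 1510.5 with the wild type siRNA, against 598.4 and 790.9 with the mutant siRNA (1.12, adjusted p = 0.00942). Ttll1, a tubulin glutamylase, was at 1.41 (adjusted p = 0.0224), and the tubulin deacetylases Sirt2 and Hdac6 were at 0.83 (adjusted p = 0.0365) and 0.80 (adjusted p = 0.0276). Each of these 4 calls was lost with at least 1 array left out. Svbp did not pass without mutant siRNA replicate 1 (adjusted p = 0.0627); Ttll1, Sirt2 and Hdac6 passed only when no array or wild type siRNA replicate 2 was left out, with adjusted p otherwise up to 0.130, 0.197 and 0.132. The count was 1 when any array but wild type siRNA replicate 2 was left out, and 4, without Sirt2, with the signals as deposited or quantile normalized.

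Growth cone genes gave 2 lower and 2 higher of 15 tested, beside 10.6% and 17.3% of all tested genes. The median of the list, 0.21, became -0.078 without wild type siRNA replicate 2. It lay between 0.10 and 0.41 without any 1 of the other arrays. Rtn4r, the receptor for the axon growth inhibitor Nogo, had 97.5 and 161.0 with the wild type siRNA, against 455.9 and 649.0 with the mutant siRNA (-2.04, adjusted p = 0.00592, limma), and did not pass without mutant siRNA replicate 2 (0.0503). Enah, an actin regulator at filopodial tips, had 1615.0 and 1662.8 with the wild type siRNA against 769.4 and 791.3 with the mutant siRNA (1.15, adjusted p = 0.00541) and passed with each array left out. Its relative Vasp was at 0.88 (adjusted p = 0.0300) and did not pass without wild type siRNA replicate 2 (0.0898), mutant siRNA replicate 1 (0.162) or mutant siRNA replicate 2 (0.0526). Chn2, a GTPase-activating protein for Rac, was at -0.77 (adjusted p = 0.0477, limma). It lost the call whichever array was left out, with log2 fold changes between -0.94 and -0.59. The count lower was 0 when mutant siRNA replicate 2 was left out and 1 for any other array, and the count higher was 1 except when wild type siRNA replicate 1 was left out.

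The list of F-BAR and WASP family proteins holds Gas7 and its relatives in domain or pathway. Of 12 tested, 2 were lower and 3 higher, with a median of 0.09. Without Gas7, 1 of 11 was lower and 3 were higher, with a median of 0.10. All tested genes gave 10.6% lower and 17.3% higher. Pacsin2, an F-BAR protein of caveolae and endocytosis, had 737.4 and 978.6 with the wild type siRNA, against 3342.4 and 2456.1 with the mutant siRNA (-1.67, adjusted p = 0.00351, limma) and, like Gas7, passed with each array left out. Its paralog Pacsin3 had 488.2 and 532.4 with the wild type siRNA against 271.2 and 270.7 with the mutant siRNA (0.99, adjusted p = 0.0192), and Wasf1, which drives actin branching, had 700.8 and 681.6 with the wild type siRNA against 322.9 and 369.5 with the mutant siRNA (1.08, adjusted p = 0.0109). Pacsin3 passed only when no array or wild type siRNA replicate 1 was left out (otherwise 0.0530 to 0.0846), and Wasf1 did not pass without mutant siRNA replicate 1 (0.0642). Leaving out mutant siRNA replicate 1 left 0 higher by limma, and leaving out wild type siRNA replicate 2 left 1.

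The growth arrest specific genes share a name with Gas7, not a family. Of 6 tested, Gas7 among them, 3 were lower and 1 higher, with a median of -0.68. Without Gas7, 2 of 5 were lower and 1 higher, with a median of -0.45. Over all tested genes the shares were 10.6% lower and 17.3% higher. Gas2l3, which links actin and microtubules, had 342.3 and 400.7 with the wild type siRNA, against 924.1 and 1164.0 with the mutant siRNA (-1.41, adjusted p = 0.00520, limma) and passed with each array left out. Gas6, a ligand of Axl receptors, had 1466.0 and 1894.5 with the wild type siRNA against 4256.1 and 2580.3 with the mutant siRNA (-0.91, adjusted p = 0.0389) and did not pass without wild type siRNA replicate 1 (0.115) or mutant siRNA replicate 1 (0.227). Gas8, a protein of motile cilia, was at 1.12 (adjusted p = 0.0497); it did not pass with the signals as deposited, with quantile normalization, or without any array but wild type siRNA replicate 2, and the count higher was then 0.

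**Figure D4:**
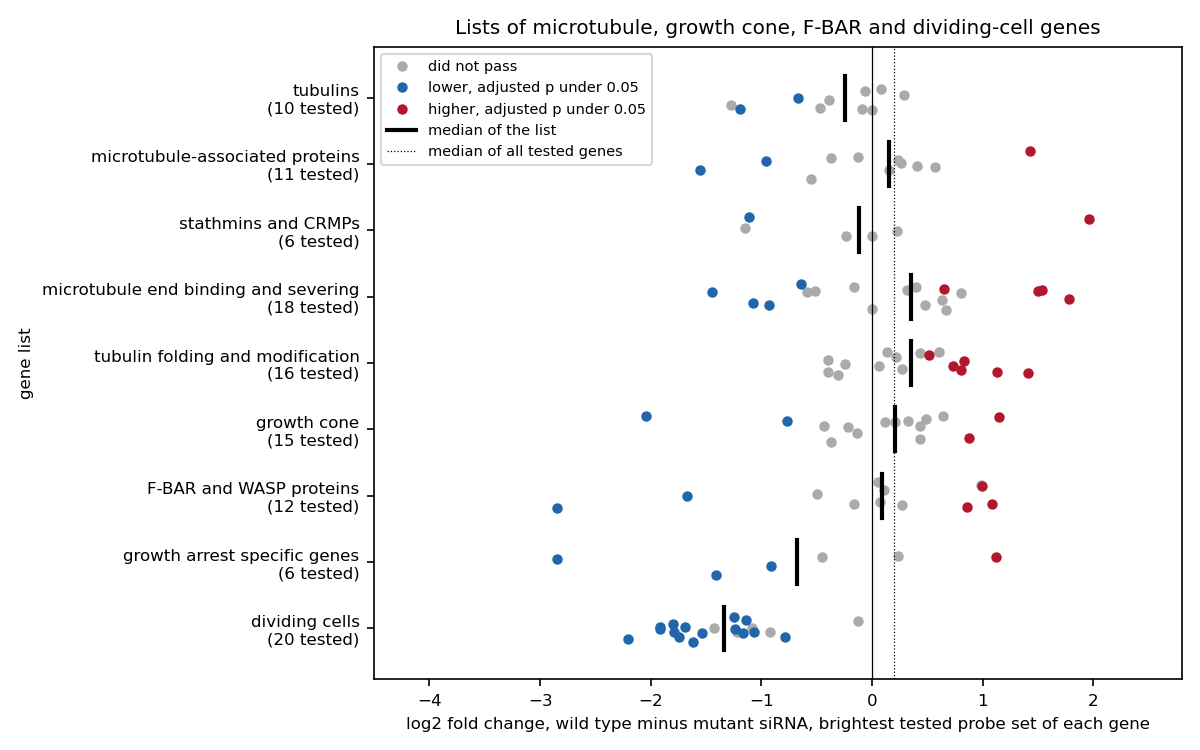
Log2 fold change, wild type minus mutant siRNA, of each tested gene (1 point, its brightest tested probe set) in 9 lists, with blue for lower and red for higher at an adjusted p under 0.05, a bar for the list's median and a dotted line for the median of all tested genes, 0.19. The dividing cell list lies to the left, with a median of -1.34, and the microtubule lists spread to both sides.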

How the data were processed

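RNA of 4 RT4D6 samples was read on Affymetrix Rat 230 2.0 arrays. The deposited unit is intensity: 1 MAS5 signal a probe set, not log transformed. The version of MAS5, which the submitters' processing notes name, is not given in the sources used here. The 2% trimmed mean of every array is 500.2, so the authors scaled between arrays; their median normalization, detection calls and filters are not in these values. Of 31099 probe sets, 57 controls were left out; 20826 of the rest have a single symbol in the platform annotation, 436 several and 9780 none.

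Signals were turned to log2, centred on each array's median and fitted in R 4.3.3 with the limma 3.58.1 functions lmFit and eBayes (intensity trend) over the 16125 probe sets not under the median of the array on 2 or more arrays, with Benjamini-Hochberg adjustment. The fit was tested on simulated data. Summaries used pandas 2.3.3 and plots matplotlib 3.10.9, in Python 3.11.15. The design follows the study's median normalization; its t-test, here taken as two-sided with equal variances on log2 values, is an alternative, since with 2 arrays a group an exact permutation test cannot go below p = 0.333. Lists took 1 probe set a gene, the tested one of highest mean log2 signal, and were described by counts and medians.

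The members and lists were chosen with earlier results of these data known. Named were all members, their listed relatives, Sox10, up to 4 called genes a list with the largest change whose groups did not overlap, and the 3 genes nearest to Gas7; single markers were named after their values were seen. The submitters and the study describe pairs of cell samples, so the replicate number was used as a block in an alternative; the correlation between arrays of 1 number, each as its deviation from the group mean, was 0.14 over the tested probe sets. Other alternatives were the signals as deposited, quantile normalization, a floor or pseudocount at the 25th percentile, other filters, eBayes without trend, and each array left out, where the lone array is assumed to vary like the other group. Promoter sequences came from RefSeq (GRCr8), without the 50 bases after each start. RT-PCR, ChIP, EMSA and reporter values were not analysed here.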

Additional observations from a re-analysis of the deposited data

How the results depend on the processing

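Of 165 values of the 11 tested probe sets under the alternatives, 149 kept their direction and side of the threshold, 9 lost the call, 1 gained it and 6 changed sign. The study's t-test gave 2 member probe sets lower (Gas7 and Stmn1) and 2 higher at an unadjusted p under 0.05 and, after Benjamini-Hochberg adjustment, an alternative chosen after seeing the data, 0 lower and 0 higher, with Gas7 at -2.84 (adjusted p = 0.189); over all probe sets that adjusted test called 0 lower and 2 higher. Unadjusted, it called 4 dividing cell genes lower and 0 higher, 1 tubulin lower and 0 higher, 4 genes of tubulin folding and modification higher and 0 lower, and 1 neuron marker lower and 0 higher. Map2 on 1388152_at was also lost under eBayes without trend (adjusted p = 0.107), which left 2 lower. The signs that changed belonged to probe sets that did not pass: Map1b 1395357_at was at -0.013 with the signals as deposited and between -0.12 and 0.25 with 1 array left out, Map2 1368411_a_at between -1.09 and 0.26, Mapt between -1.26 (adjusted p = 0.0381) and 0.51, and Tubb3 between -0.21 and 0.80; the cause was not tested. With 1 array left out, the count of member probe sets lower lay between 2 and 4, that of those higher stayed at 2, and Gas7 lay between -3.32 and -2.36. With the replicate block 3 were lower and 2 higher, Gas7 was at -2.84 (adjusted p = 4.4e-06), and no member's call changed. The calls over all probe sets, 1956 lower and 2348 higher, became 2280 and 1940 on the signals as deposited, where the median was 0.05 in place of 0.13. Leaving out mutant siRNA replicate 1 gave 706 and 1007, mutant siRNA replicate 2 gave 903 and 924, and eBayes without trend gave 1187 and 1177, with 6 dividing cell genes lower and 2 genes of tubulin folding and modification higher. Of 135 list medians, 127 moved by less than the spread between pairs. Many of these could not move, since a change of variance model leaves each fold as it is and a filter can only drop genes. The F-BAR and WASP median moved by more with the signals as deposited, with quantile normalization and with each array left out. The tubulin median did so without mutant siRNA replicate 1 or wild type siRNA replicate 2. Those of growth cone genes and microtubule-associated proteins changed sign without wild type siRNA replicate 2. Of the 34 other called genes named, 14 kept the call with each array left out and 32 under both other scalings. Signals near the 25th percentile limit what can be said of Stmn2, Tubb2b and Gap43.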
